A study of Homo sapiens with 16 samples.

Results

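The 42 interferon-stimulated genes described here were a fixed list of antiviral genes, and the question was which of them carried p65 near their start 30 min after TNFα and which were left without it. For each gene, the 200-bp bin with the highest mean p65 signal over 12 ChIP libraries was taken from 10 kb upstream to 2 kb downstream of its transcription start, so the choice of bin used all groups together. The same was done for 20007 protein-coding genes, of which the 42 are a small part. Of the 42 members, 41 had signal in this window, and *IFI27* was at 0 in all 16 tracks over its whole window, in input as well as ChIP, so that nothing could be read there.

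p65 (RELA) is a subunit of NFκB that carries an activation domain. TNFα frees NFκB from its inhibitors in the cytoplasm, and p65 then enters the nucleus and binds DNA at κB sites. Interferon-stimulated genes are best known as targets of another complex, ISGF3, which contains STAT2 and IRF9, forms after interferon binds its receptor and sits on the interferon-stimulated response element (ISRE). Their products detect viral RNA, degrade it, block translation or restrict viral entry. In intestinal epithelium they form part of the barrier against viruses, and some of them can also be induced without interferon.

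The cells were the human colorectal adenocarcinoma lines HT29 and SW480, each stably transfected with ERβ (*ESR2*) or with an empty vector (mock), and every culture had received 30 ng/ml TNFα for 30 min. The study itself calls the ERβ in these cells transduced. Each of the 4 groups, HT29 mock, HT29 ERβ, SW480 mock and SW480 ERβ, had 3 p65 ChIP libraries and 1 input library, which gave 16 tracks. The inputs were told from the ChIP libraries by their titles, since the labels list the p65 antibody on them as well, and each value over input rests on those titles. No library of cells without TNFα was analysed here, so the signal is binding in the presence of TNFα and not a response to it, and the ERβ cells received no estrogen in the protocol given. Each condition rests on 1 stably transfected line, and a difference between an ERβ and a mock line cannot be told apart from a difference between those transfected populations. The study describes the 3 libraries of a group as biological replicates.

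The tracks hold no read counts. The study gives a range of mapped reads per sample, which was not used here, so no value was weighed by depth. Signal is the number of 100-bp fragments that cover a base when a library is scaled to 10000000 tags. The *ESR2* label check held in each line, since the ratio of signal in coding exons to introns was 2.12 to 7.20 in the HT29 ERβ libraries against 1.08 to 1.35 in HT29 mock, and 1.78 to 3.02 in SW480 ERβ against 1.28 to 1.58 in SW480 mock. Libraries differed in how strongly they were enriched. Over the 308 genes bound in all 4 groups, the median signal was 9.44, 4.75 and 5.19 in the HT29 mock libraries. It was 8.11, 3.97 and 3.87 in the HT29 ERβ libraries, lower than mock in each same-numbered pair. It was 4.55 to 5.19 in the SW480 mock libraries and 6.10, 11.3 and 9.65 in the SW480 ERβ libraries.

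A bin was called bound in a library when its signal was 2 or more and exceeded by 4-fold or more both the matching input (same cell line, same transfection) and the average over the 10 kb around it, and a group needed 2 of its 3 libraries. By this rule *ISG15*, *IFIH1* and *OAS3* were bound in all 4 groups, and *XAF1* was bound in SW480 mock and SW480 ERβ but in neither HT29 group. The other 37 members with signal were bound in no group. This gave 3 bound members of 41 in HT29 mock, 3 in HT29 ERβ, 4 in SW480 mock and 4 in SW480 ERβ. Among all 19190 genes with signal the bound share was 5.98% in HT29 mock, 3.94% in HT29 ERβ, 2.17% in SW480 mock and 11.3% in SW480 ERβ. Without SW480 ERβ replicate 2 or 3 the share of all genes bound in SW480 ERβ was 6.12% or 6.29%, and without HT29 ERβ replicate 1 it was 2.32% in HT29 ERβ. Both remaining libraries of the group then had to pass. With all libraries kept, the share in SW480 ERβ was 8.09% against the other input of the line, 8.13% at 6-fold over input and 8% at a signal minimum of 3. Whether the members stand above or below all genes in SW480 ERβ thus depended on the libraries, the input and the limits. For at least 1 group the bound share was 4 of 41 members (9.76%) beside 12.3% of all genes, and for all 4 groups 3 of 41 (7.32%) beside 1.61%. When the rule was run on the highest bins of the input tracks, each set against the other input of its line, none of the 42 members passed in any of the 4 inputs, and at most 1 of 20007 genes did.

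The sequences of the 4 bound bins are shown because each holds an exact match to the κB consensus, and that of *EIF2AK2*, bound in no group, because it holds one too and had the highest signal of the bins that were not bound. Positions are on GRCh38, bases are read 5′ to 3′ on the plus strand, and capitals mark κB matches, ISRE cores (GAAA, any 2 bases, GAAA) and, in *ISG15*, an AP-1 match (TGANTCA). For *IFIH1*, *OAS3* and *EIF2AK2* 30 bases around the κB match are given.
ISG15, chr1:1006601-1006800: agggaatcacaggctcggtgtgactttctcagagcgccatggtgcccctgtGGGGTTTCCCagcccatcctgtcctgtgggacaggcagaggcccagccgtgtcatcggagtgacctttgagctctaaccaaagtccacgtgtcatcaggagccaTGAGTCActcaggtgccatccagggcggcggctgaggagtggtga
XAF1, chr17:6753001-6753200: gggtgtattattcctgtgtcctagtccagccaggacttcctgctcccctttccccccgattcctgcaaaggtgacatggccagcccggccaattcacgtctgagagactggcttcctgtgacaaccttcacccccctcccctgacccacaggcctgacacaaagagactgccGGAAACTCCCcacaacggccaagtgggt
IFIH1, chr2:162318970-162318999: catgtgatttGGGACTTTCCaaaggggaag
OAS3, chr12:112938328-112938357: aacGAAACTGAAAgcaGGGAATTTCCCaag
EIF2AK2, chr2:37156109-37156138: ggataagggaGGGATTTCCCcatgcagtta

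Searched on both strands, a κB match was present in 4 of the 4 bound bins and in 6 of the 37 bins of members that were not bound (16.2%), where *IFITM1* and *IFITM2* share a bin that counts for both. Across the genome it was present in 59.2% of the bins of the 2367 genes bound in at least 1 group, in 13.4% of the bins of genes bound in none, and in 19.1% of the bins of all genes with signal. In *OAS3* a pair of overlapping κB matches, counted as 1 stretch of capitals in the line above, begins a few bases after an ISRE core. The *IFIH1* bin holds 2 overlapping ISRE cores, GAAACAGAAA and GAAAAGGAAA, outside the stretch printed. *ISG15* is the bound bin with an AP-1 match, a motif found in 5.15% of all bins. The *XAF1* match reads GGGAGTTTCC on the minus strand.

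**Figure D1:**
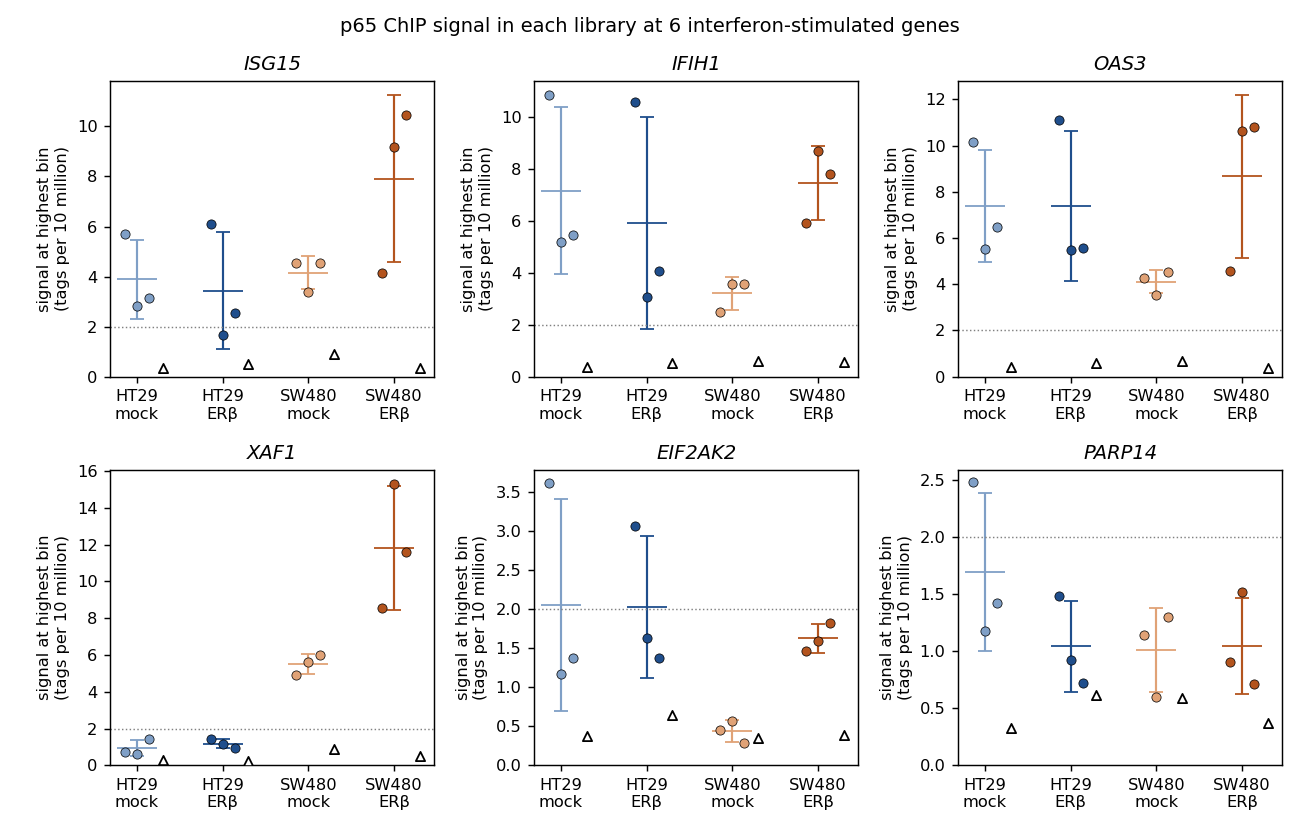
p65 signal (y axis, fragments per base scaled to 10000000 tags) at the highest bin of 6 genes in each group; circles are the 3 libraries, bars the mean and SD, open triangles the input and the dotted line the signal minimum of 2. XAF1 is high in the SW480 libraries alone, ISG15, IFIH1 and OAS3 are above their input in all 4 groups, and EIF2AK2 and PARP14 pass the minimum only in first replicates of HT29 groups.

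*ISG15* encodes a ubiquitin-like protein that is joined to other proteins or secreted. Its bin (ENSG00000187608) lies at -6796 bp from the canonical start at position 1013497 of chromosome 1, in an intron of a longer *ISG15* transcript whose start is 5555 bp away, and not at the promoter. The signal was 5.71, 2.84 and 3.13 in HT29 mock, 6.08, 1.69 and 2.53 in HT29 ERβ, 4.56, 3.40 and 4.52 in SW480 mock, and 4.13, 9.16 and 10.5 in SW480 ERβ, with inputs of 0.361, 0.517, 0.924 and 0.35 in that order. All 12 values are above those of the inputs, and the SW480 ERβ libraries reach highest but overlap the SW480 mock ones. The second HT29 ERβ library missed all 3 limits, and the second SW480 mock library missed the input limit at 3.68-fold. When the start was taken from the gene record, which begins at the longer transcript, the bin of *ISG15* moved elsewhere and was bound in SW480 ERβ only, and with the promoter alone (1 kb upstream to 100 bp downstream) *ISG15* was not bound.

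*IFIH1* encodes MDA5, a cytoplasmic sensor of long double-stranded RNA. Its bin at chr2:162318801-162319000 lies at -217 bp from the start of *IFIH1*, which is on the minus strand. The same bin is 16 bp from the start of *GCA*, which is transcribed the other way, so the signal belongs to a promoter shared by both genes. The values were 10.9, 5.20 and 5.44 in HT29 mock, 10.6, 3.08 and 4.09 in HT29 ERβ, 2.49, 3.56 and 3.58 in SW480 mock, and 5.91, 8.69 and 7.81 in SW480 ERβ, over inputs of 0.360 to 0.610. All 12 libraries passed the rule. SW480 mock was the lowest group, and its 3 libraries did not overlap those of HT29 mock or of SW480 ERβ.

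*OAS3* encodes an oligoadenylate synthetase, which makes the messenger that switches on RNase L. The bin at chr12:112938201-112938400 covers the promoter, with its centre at -173 bp from the canonical start and 16 bp from the start of another *OAS3* transcript. The signal was 10.1, 5.54 and 6.46 in HT29 mock, 11.1, 5.47 and 5.55 in HT29 ERβ, 4.28, 3.55 and 4.52 in SW480 mock and 4.59, 10.6 and 10.8 in SW480 ERβ, and the inputs were 0.390 to 0.675. It was thus well above input in all 12 libraries, at group means of 6.10 to 22.2 times the input. The neighbouring members of the family on the same chromosome, *OAS1* and *OAS2*, were bound in no group. *OAS2* was counted as bound only when its window was widened to 50 kb, where the bin it picked was that of *OAS3*.

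*XAF1* encodes a factor that counters the apoptosis inhibitor XIAP. Its bin at chr17:6753001-6753200 lies between genes, at -2945 bp from the canonical start and -2347 bp from that of the nearest *XAF1* transcript. The signal was 4.90, 5.62 and 6.01 in SW480 mock and 8.57, 15.3 and 11.6 in SW480 ERβ. In HT29 it was 0.749, 0.647 and 1.46 in mock and 1.43, 1.16 and 0.956 in ERβ, below the minimum of 2 in all 6 libraries. The lines therefore did not overlap. The input was also higher in SW480, 0.874 in mock and 0.50 in ERβ against 0.310 and 0.240 in HT29, and over the whole window the input averaged 0.590 and 0.436 in SW480 against 0.210 and 0.242 in HT29. A low signal remained in HT29, since 3 of its 6 libraries were over 4-fold above both the input and the surroundings while under the signal minimum. With that minimum at 1, *XAF1* was bound in HT29 ERβ too, through its first 2 libraries, but not in HT29 mock.

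**Figure D2:**
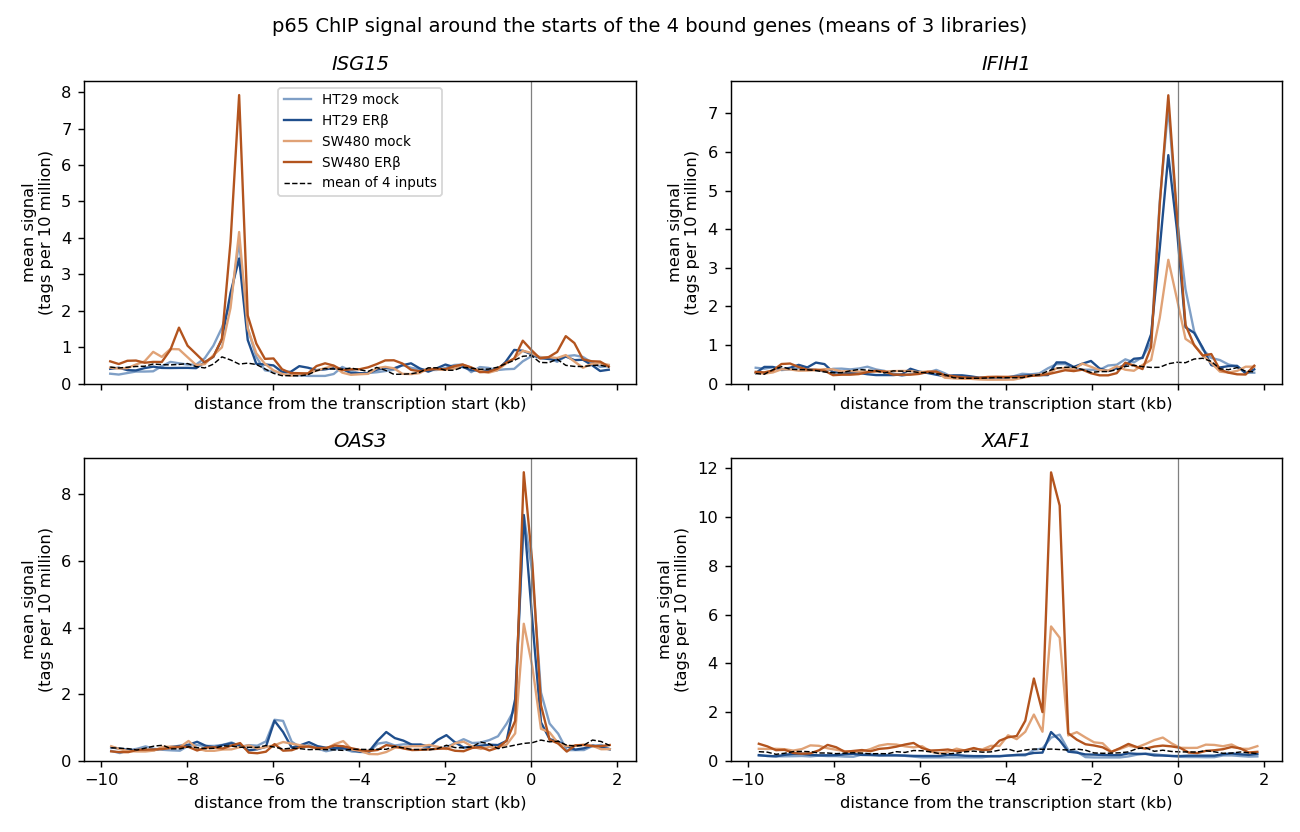
Mean p65 signal of 3 libraries (y axis, fragments per base scaled to 10000000 tags) by distance from the canonical transcription start (x axis, kb) for the 4 bound genes, with the mean of the 4 inputs as a dashed line. Each window holds 1 main peak, at the promoter for IFIH1 and OAS3 and upstream of it for ISG15 and XAF1, and at XAF1 both HT29 lines lie far below the SW480 lines.

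The ranks of the bound members among all 19190 genes with signal are a description, since the signal minimum of the rule already asks for a high rank. By group mean *OAS3* was at rank 151 in HT29 mock, 90 in HT29 ERβ, 289 in SW480 mock and 226 in SW480 ERβ. *IFIH1* was at rank 163, 166, 463 and 309 in the same order, and *ISG15* at 675, 615, 282 and 274. *XAF1* was at rank 5035 in HT29 mock and 3072 in HT29 ERβ, and at 165 in SW480 mock and 109 in SW480 ERβ. The remaining members sat in the body of the distribution. The median over the 41 members was 0.660 in HT29 mock, 0.577 in HT29 ERβ, 0.698 in SW480 mock and 0.821 in SW480 ERβ, beside 0.624, 0.594, 0.797 and 0.965 over all genes.

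**Figure D3:**
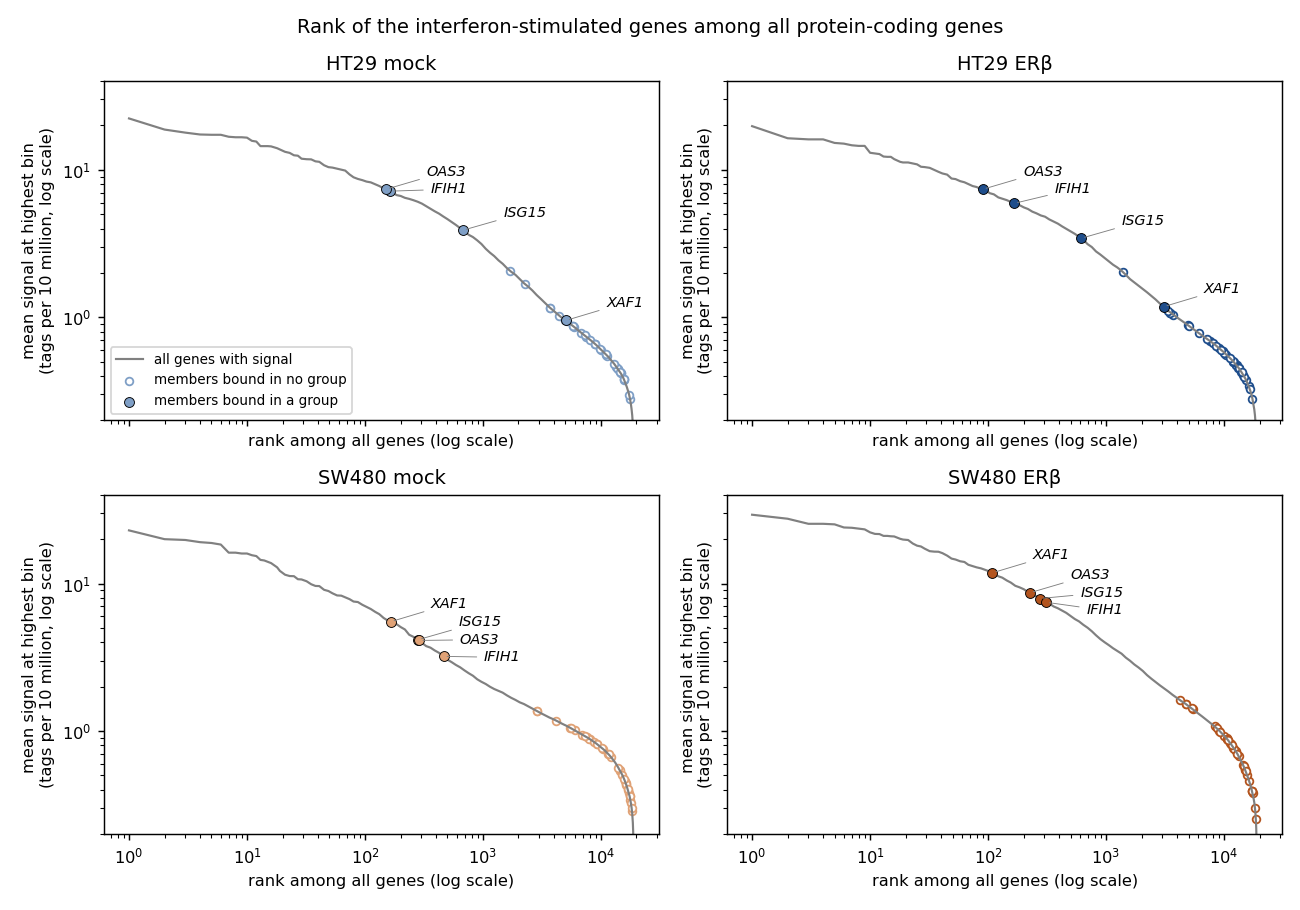
Mean signal of a group at the highest bin (y axis, log scale) by rank among all genes (x axis, log scale); the grey line is all 19190 genes with signal, filled points are members bound in at least 1 group and open points the 37 others. In SW480 mock and SW480 ERβ the 4 bound genes sit far up the curve, with a gap down to the other members, whose highest means are 1.37 and 1.63. The rule for a bound bin holds a signal minimum, so the filled and open points are in part split by it.

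The levels of the members bound in no group are a description, since the rule itself sets limits on signal and on its ratio to input. Not all were near input. Group means reached 5.58 times the input at *USP18* in SW480 ERβ. In HT29 mock they were 5.40 times at *EIF2AK2*, 5.12 at *PARP14* and 4.49 at *BST2*. The group means of the 37 ran from 0.280 to 2.05 in HT29 mock (median 0.611), from 0.280 to 2.02 in HT29 ERβ (0.559), from 0.287 to 1.37 in SW480 mock (0.669) and from 0.253 to 1.63 in SW480 ERβ (0.800). The inputs at the same bins had medians of 0.380, 0.530, 0.589 and 0.452. Under 2-fold over input were 25 of the 37 in HT29 mock, 33 in HT29 ERβ, 35 in SW480 mock and 25 in SW480 ERβ. Each count rests on 1 input, and the same count over all genes was not made, so the counts are not a result about these genes. Over all genes with signal the input medians were 0.415, 0.527, 0.685 and 0.461 in the same order. Because the depth of each library was not used, a bin that was not bound can hold binding too weak to detect in these tracks.

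The counts by role describe small sets and stand beside the 12.3% of all genes bound in at least 1 group, so a role with none bound is near that share. No interferon-induced GTPase was bound, 0 of 7, and the highest group mean of any of them ran from 0.485 to 1.08. None of the 7 restriction factors of membranes and mitochondria was bound at its highest bin, with 0.559 to 1.52 for the 6 that had signal. *IFITM2* depended on the edge of the window, since with bins moved by 100 bp it took a bin at -9815 bp that was bound in SW480 ERβ (group mean 3.58), and with the start of the gene record one nearby (4.01), 1626 bp from the start of *IFITM5*. None of the 8 genes of signalling, ADP-ribosylation and the nuclear body was bound (0.664 to 1.69). Of the 10 sensors and binders of viral RNA 2 were bound and the other 8 reached 0.669 to 2.05, and of the 4 genes of the ISG15 system 1 was bound, with 0.694 to 1.01 for the 3 others. *XAF1* was the bound gene among the 6 members outside these roles, and the other 5 reached 0.559 to 0.926.

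**Figure D4:**
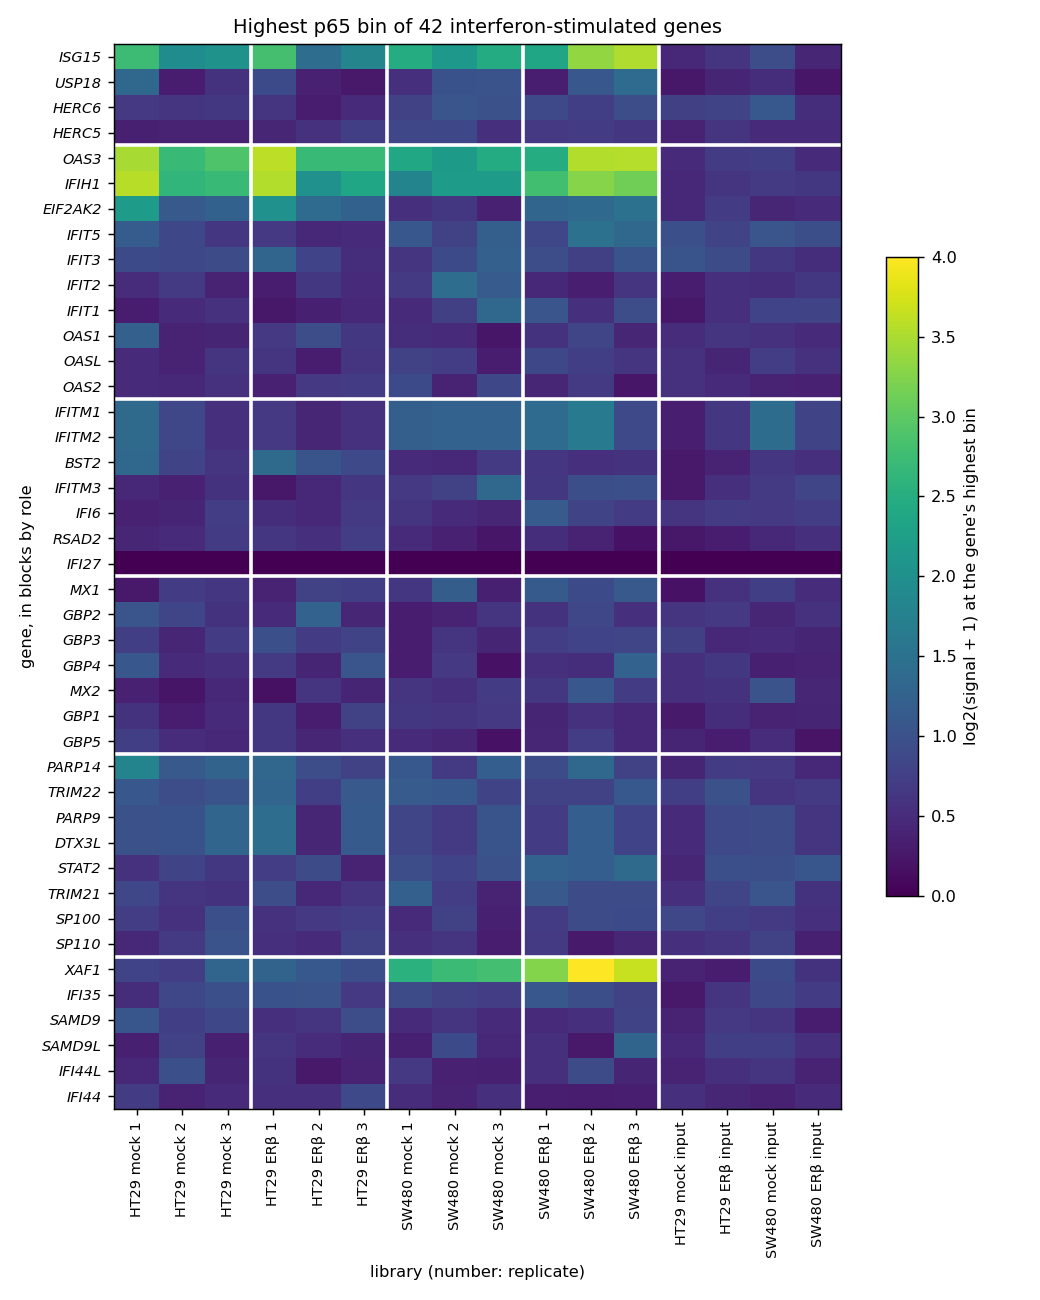
log2(signal + 1) at the highest bin of the 42 genes (rows, in blocks by role) in the 12 ChIP and 4 input libraries (columns). Rows of ISG15, OAS3 and IFIH1 are bright in all ChIP libraries, XAF1 in the 6 SW480 ones, IFI27 is at 0 throughout, and most other rows look alike in ChIP and input.

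The unbound member with the highest signal was *EIF2AK2*, which encodes the RNA-activated kinase PKR. Its bin at chr2:37156001-37156200 lies 879 bp into the gene and holds the κB match GGGATTTCCC. The signal was 3.62, 1.17 and 1.37 in HT29 mock, 3.06, 1.63 and 1.38 in HT29 ERβ, 0.450, 0.572 and 0.287 in SW480 mock, and 1.47, 1.59 and 1.82 in SW480 ERβ. Only the first library of each HT29 group passed the rule, and these are the 2 HT29 libraries with the strongest enrichment overall. SW480 mock was at the level of its input of 0.350, and all 9 other libraries were above all 3 SW480 mock values.

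*PARP14*, an ADP-ribosyltransferase, came next with 2.48, 1.18 and 1.42 in HT29 mock and group means of 1.01 to 1.05 in the other groups, and again 1 library passed, the first of HT29 mock. *IFITM1* and *IFITM2*, which block viral entry at membranes, share 1 bin at the start of *IFITM2* and so 1 set of values, with group means of 0.962 ± 0.596, 0.475 ± 0.118, 1.37 ± 0.04 and 1.52 ± 0.63 (SD, n = 3) in HT29 mock, HT29 ERβ, SW480 mock and SW480 ERβ. The input of SW480 mock was higher than the ChIP there, at 1.68. *STAT2*, a subunit of ISGF3, had 0.603 ± 0.146, 0.619 ± 0.290, 0.884 ± 0.129 and 1.43 ± 0.17, and *IFIT5*, an RNA-binding protein, 0.874 ± 0.343, 0.456 ± 0.113, 1.05 ± 0.29 and 1.40 ± 0.53, and the SW480 inputs there were 0.950 and 1.11 for *STAT2* and 1.08 and 0.945 for *IFIT5*. At the other end, *GBP5*, *IFI44L* and *RSAD2* had no group mean above 0.485, 0.559 and 0.559.

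κB matches also lay in windows of members that were not bound, as in most windows of this length. Of the 37 members with signal that were bound in no group, 36 had at least 1 κB match in their window (97.3%), beside 89.8% of all genes with signal, and the median was 3 matches in a window in both. They lay at 115 positions when a position in overlapping windows is counted once. The mean signal over the 300 bp around them had a median of 0.508 in whichever group was highest and reached 1.95 at most, at the *EIF2AK2* match. These values are a description, since members whose highest bin was not bound can hold little signal anywhere in the window. The 5 matches in the window of *IFI27*, where the tracks are at 0, were left out. Some matches that were kept also lay where the ChIP signal was low in every group. It was 0.0967 to 0.143 at the *IFITM1* match at -3140 bp and 0.173 to 0.287 at the *IFITM3* match at -228 bp. At the *USP18* match at -6508 bp it was 0 to 0.121. Absence of p65 could not be read at such places. In the windows of the bound members 5 of the 14 matches lay in the bound bin.

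ISRE cores were common in the promoters of the members, bound or not. RefSeq promoters (GRCh38.p14, 250 bases before to 50 after the start) matched 33 of the 42 members, and 23 of them held at least 1 ISRE core (69.7%), beside 3.18% of 15345 promoters of protein-coding genes. Among members with signal that were bound in no group it was 19 of 28 (67.9%). A κB match was in 8 of the 33 promoters (24.2%), beside 9.91% of all. Among members with signal that were bound in no group it was in 5 of 28 (17.9%). Of the promoters of members bound in no group, 4 are shown because they hold this element and no bound bin, each as a 30-base stretch with ISRE cores in capitals, written on the strand of the gene, where a core on the other strand reads TTTC, any 2 bases, TTTC.
IFIT1, chr10:89392510-89392539: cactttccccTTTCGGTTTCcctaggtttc
HERC5, chr4:88457035-88457064: aaacattatgTTTCGTTTTCcactggagct
IFI6, chr1:27672266-27672295: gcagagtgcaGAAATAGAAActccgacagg
PARP14, chr3:122680800-122680829: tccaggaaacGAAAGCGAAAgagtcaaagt

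To see how the members compare with the rest of the pathway, the same rule was run on other lists. These lists are small, and their counts were not tested. They stand beside 12.3% of all genes bound in at least 1 group and 1.61% in all 4. A list with none bound is near the first share. All 11 NFκB feedback genes, such as *NFKBIA* and *TNFAIP3*, were bound in all 4 groups, with group medians of 10.7 to 16.4, and in each group that median was above the means of all 4 bound members. The study names most of these genes among its most enriched p65 promoter sites from these same data. Their list therefore gives the level of known strong sites and is not an independent comparison. Of 14 interferon signalling genes 5 were bound in at least 1 group and 2 in all, *IFNGR2* and *TYK2*. Of 9 IRF genes 4 were bound, *IRF1* and *IRF5* in all groups. None of 7 interferon ligand genes was bound, nor any of 12 genes of other tissues. Of 3 interferon-type chemokine genes 1 was bound, *CXCL10*, and of 15 antigen presentation genes 1 was bound while 8 were at 0 in every ChIP library. *IRF7*, *B2M*, *HLA-B* and *HLA-C*, counted as not bound, had group means of 0 to 0.197, so little could be read there.

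The difference between ERβ and mock cells was tested with limma on log2(signal + 1) over all 19190 genes, with Benjamini-Hochberg adjustment and a threshold of 0.05. In HT29 no gene passed in either direction, which is 0% of the genes, and no member had an unadjusted p under 0.05. The log2 difference, ERβ minus mock, was -0.22 at *ISG15* (95% interval -1.01 to 0.57), -0.33 at *IFIH1* (-1.14 to 0.49), -0.03 at *OAS3* (-0.85 to 0.79) and 0.18 at *XAF1* (-0.50 to 0.86). These intervals are wide and do not show that the groups were alike.

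In SW480, 3.44% of the genes were higher and 0.125% lower in ERβ cells. Among the 41 members 1 was higher, *EIF2AK2*, by 0.87 (SE 0.26, adjusted p = 0.0475), in 3 of 3 libraries of the same number, and 1 was lower, *IFIT2*, by -0.62 (SE 0.17, adjusted p = 0.0293). With limma these calls were both lost without SW480 ERβ replicate 2 (adjusted p = 0.168 for *EIF2AK2* and 0.199 for *IFIT2*), without SW480 mock replicate 2 (0.108 and 0.186) or replicate 3 (0.191 and 0.0804), after quantile normalization (0.0828 and 0.0509), and when the genes without signal were kept in the fit (0.160 and 0.132). *EIF2AK2* was also lost without SW480 ERβ replicate 3 (0.175), SW480 mock replicate 1 (0.148), HT29 ERβ replicate 2 (0.0506) or HT29 mock replicate 3 (0.0544), and with median ratio scaling (0.130). *IFIT2* was no longer called lower with only the groups compared, the bin by mean log2, the promoter window, the wide window or the start of the gene record. Under the last of these its direction turned. Both bins were bound in no group, and *IFIT2* had 0.610, 1.71 and 1.21 in SW480 mock and 0.370, 0.260 and 0.540 in SW480 ERβ, with inputs of 0.440 and 0.565. At the bound genes the differences were 1.01 for *IFIH1* (adjusted p = 0.161), 0.95 for *XAF1* (0.107), 0.84 for *OAS3* (0.262) and 0.71 for *ISG15* (0.331), which did not pass. All 3 SW480 ERβ libraries also had a higher median at the 308 genes bound in all groups than the SW480 mock libraries, and the part of that in these differences was not tested.

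Within a line, libraries with the same replicate number deviated together, in some pairs weakly, so the fit was also made with a replicate block. For ERβ minus mock and the interaction the block was the replicate within a line. For the comparisons of the lines it was the replicate number across lines, for which no joint deviation was checked. With the replicate block 12.5% of the genes were higher and 0.344% lower in SW480 ERβ, and 5 members were higher, *IFIH1* (adjusted p = 0.000871), *EIF2AK2* (0.00133), *XAF1* (0.00176), *OAS3* (0.00924) and *ISG15* (0.0299). *IFIT2* was the member that was lower (0.0120). *ISG15* was higher in 2 of 3 pairs and the other 4 in 3 of 3. With the replicate block and scaling by the median ratio of libraries, *IFIH1* (0.71, adjusted p = 0.0105), *XAF1* (0.64, 0.0374) and *EIF2AK2* (0.65, 0.0262) still passed, while *OAS3* (0.54, 0.0778) and *ISG15* (0.42, 0.255) did not. With the block and quantile normalization none of the 5 passed, at 0.27 for *IFIH1* (adjusted p = 0.541), 0.20 for *XAF1* (0.738), 0.11 for *OAS3* (0.847), -0.026 for *ISG15* (0.979) and 0.67 for *EIF2AK2* (0.0623), and the direction at *ISG15* turned. *IFIT2* passed as lower under both.

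Whether the ERβ effect differed between the lines was tested by the interaction term. It passed for 0.698% of the genes in the direction of a larger effect in SW480 and for 0.0104% in the other, and for 0 of 41 members, of which 3 had an unadjusted p under 0.05. With the replicate block these shares were 8.52% and 0.0625%, and 2 members passed, *IFIH1* with a difference of 1.33 (SE 0.29, adjusted p = 0.00313) and *EIF2AK2* with 0.84 (SE 0.27, adjusted p = 0.0388). Without the block *IFIH1* had an adjusted p of 0.282 and *EIF2AK2* 0.294. With the block and median ratio scaling *IFIH1* still passed (0.93, adjusted p = 0.0328) and *EIF2AK2* did not (0.353), and with the block and quantile normalization neither did (0.616 and 0.570).

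Between the lines, the gene that stood out was *XAF1*, at a bin that was picked with the same libraries and was high in SW480 alone. Its p-values leave out that choice of bin. In mock cells 9.5% of the genes were higher in SW480 and 4.67% were lower, and among the members 2 were higher and 1 lower. With median ratio scaling the balance over all genes turned to 7.01% higher and 9.54% lower (members 1 and 3), with quantile normalization it was 8.51% and 8.53%, and as ratios to input 1.8% and 9.38%. *XAF1* was higher by 1.76 (SE 0.34, adjusted p = 0.000428) and *IFIT2* by 0.56 (SE 0.17, adjusted p = 0.0227), while *EIF2AK2* differed by -1.01 (SE 0.26, adjusted p = 0.00760). As log2(signal + 1) minus log2(input + 1), the limma difference of *XAF1* was 1.24 (adjusted p = 0.0293), so part of its size moved with the higher SW480 input. Without the added 1, the group mean of *XAF1* was 3.07 times its input in HT29 mock and 6.31 times in SW480 mock. It was 4.92 times in HT29 ERβ and 23.7 times in SW480 ERβ. Without the first HT29 mock library *EIF2AK2* was no longer past the threshold, at -0.66 (adjusted p = 0.0901), and *IFIT2* was at 0.55 (0.0674). At *IFIH1* and *OAS3* SW480 mock was at -0.90 (adjusted p = 0.125) and -0.68 (0.271) from HT29 mock, and at *ISG15* at 0.12 (0.880). Scaled by the median ratio of libraries, *IFIH1* and *OAS3* passed as lower in SW480 mock, at -1.09 and -0.88, and *IFIT2* did not pass (adjusted p = 0.0623). With the replicate block 9.21% of the genes were higher and 4.34% lower, and the same 3 members passed.

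In ERβ cells 26% of the genes were higher in SW480 and 2.21% were lower, and the median of all genes was shifted by 0.27 against 0.07 for the members. Of the members 8 were higher and 1 lower. *XAF1* differed by 2.53 (SE 0.34, adjusted p = 2.28e-07) and *ISG15* by 1.05 (SE 0.39, adjusted p = 0.0391). The other 6, *IFITM1*, *IFITM2*, *IFIT5*, *STAT2*, *IFIT1* and *MX2*, were higher by 0.42 to 0.74 at bins that were not bound, and *BST2* was lower by -0.51. At *BST2* and *IFIT1* the direction turned when the bin was chosen in another way, as given at the end. With the libraries scaled by the median ratio, 6.09% of the genes were higher and 6.8% lower, and 5.79% and 5.99% after quantile normalization. Under the median ratio 1 member was higher, *XAF1* at 1.99, and 3 were lower, *BST2*, *IFI44* and *RSAD2*. With the replicate block 25.3% of the genes were higher and 2.15% lower, and *ISG15* no longer passed (adjusted p = 0.0570). *XAF1* was thus the member that kept its direction and its call under median ratio and quantile scaling in both comparisons of the lines.

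**Figure D5:**
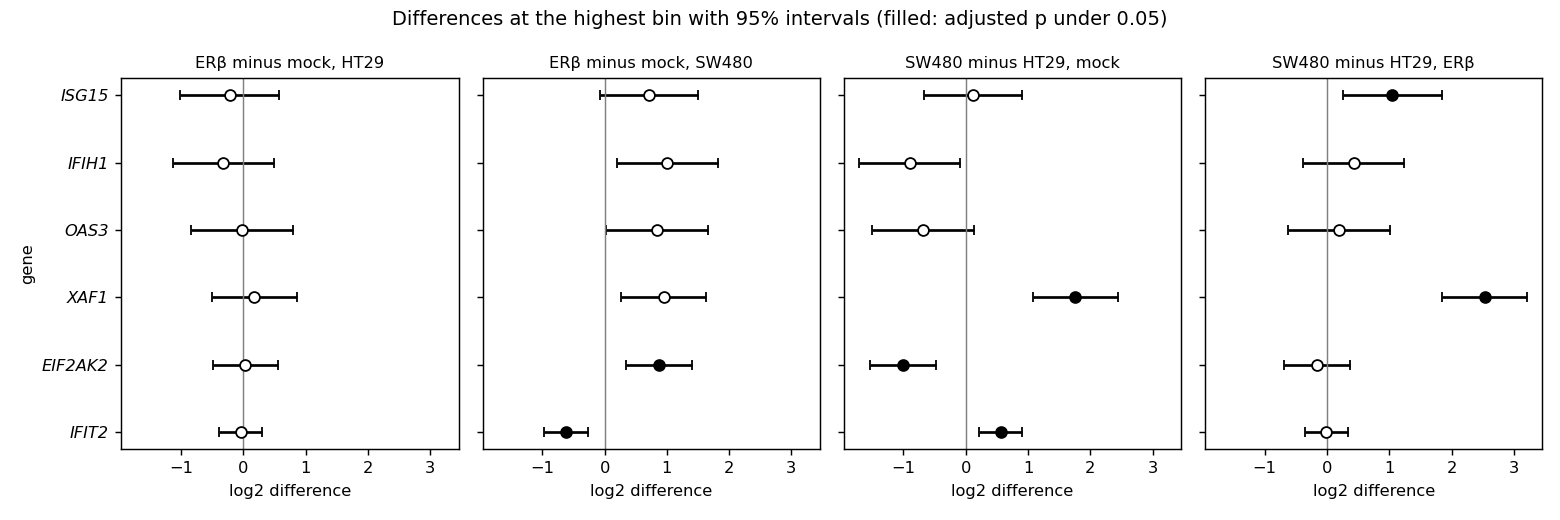
log2 differences at the highest bin (x axis) with 95% intervals for 6 genes in the 4 comparisons, from limma on log2(signal + 1) without a replicate block; filled points have an adjusted p under 0.05. XAF1 is higher in SW480 in both comparisons of the lines, and in HT29 every interval of ERβ minus mock includes 0.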

How the data were processed

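HT29 and SW480 cells, mock or ERβ, had been treated with 30 ng/ml TNFα for 30 min and crosslinked with DSG and formaldehyde before p65 ChIP. The authors aligned reads to hg38 (GRCh38) with STAR, kept unique reads and, with HOMER, deposited 1 coverage signal track per library, scaled to 10000000 tags and fragments of 100 bp (versions are not given in the sources used here). The lowest value kept is 0.05. Scaled tracks keep no depth, so no count test or counting interval was made. The study takes the ERβ inputs from a separate deposit. Of 20007 genes 817, without signal in any ChIP library, were left out of the tests after the data were seen.

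Tracks were averaged in 200-bp bins (Python 3.11.15, numpy 2.4.6, pandas 2.3.3, pysam 0.24.0) at canonical starts of GENCODE release 44. The fit was limma 3.58.1 in R 4.3.3, on log2(signal + 1) with all 12 ChIP libraries in 1 model. Bin picking and fit were tested on simulated data. The surroundings are the 10 kb about a bin without the bin and 200 bp to each side. Motifs were exact matches on either strand, with κB searched by its consensus. Every member bound or past a threshold is named, with the 6 highest and 3 lowest of those not bound. Members and lists were chosen with earlier results of these data known.

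Same-numbered mock and ERβ libraries deviated from their group means together, with correlations over 1707 bins of 0.345, 0.111 and 0.182 in HT29 and 0.351, 0.116 and 0.255 in SW480. This pairing comes from the data, since the labels do not say what libraries of a number shared. Alternatives covered the limits, inputs, windows, scaling, pseudocount, block and each library in turn.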

Additional observations from a re-analysis of the deposited data

Results flagged for a closer look

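At *IFIH1* the 3 pairs of same-numbered libraries moved in opposite directions in the lines, lower with ERβ in 3 of 3 pairs of HT29 and higher in 3 of 3 pairs of SW480. The interaction term was 1.33 on the log2 scale, and limma gave it an adjusted p of 0.282 without the replicate block and 0.00313 with it. With the block and quantile normalization it was 0.38 (adjusted p = 0.616). The SW480 ERβ libraries had the highest median signal of the SW480 libraries at the 308 genes bound in all groups. In HT29 that median was lower in each ERβ library (8.11, 3.97 and 3.87) than in its same-numbered mock library (9.44, 4.75 and 5.19). The first HT29 pair at *IFIH1* was close, 10.9 in mock and 10.6 in ERβ. The part of these medians in the difference was not tested. Groups held 3 ChIP libraries, so single libraries were not tested as outliers.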

How the results depend on the processing

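*ISG15*, *IFIH1*, *OAS3* and *XAF1* made up the 4 members bound in at least 1 group under every limit tried, with each library left out and without replicate 1 of both HT29 groups. *IFITM2* was a 5th with bins moved by 100 bp or the start of the gene record. At a signal minimum of 1 *XAF1* was a 4th in HT29 ERβ. At 6-fold over input 2 members were bound in SW480 mock (1.16% of all genes) and 1 in all 4 groups (0.719%). The promoter window left 2 members in SW480 mock (0.943%), in SW480 ERβ (4.85%) and in at least 1 group (5.15%), and the wide window gave 5 in HT29 mock (11.8%), 10 in SW480 ERβ (21.4%) and 10 in at least 1 group (23.6%). Leaving out 1 library gave 3 to 3 members in HT29 mock, 2 to 3 in HT29 ERβ, 3 to 4 in SW480 mock, 4 to 4 in SW480 ERβ, 4 to 4 in at least 1 group and 2 to 3 in all 4 groups (all genes, without a library of that group, 4.12% to 5.25%, 2.32% to 3.29%, 1.5% to 1.94%, 6.12% to 10.9%, and without any 1 library 8.82% to 12.3% and 1.2% to 1.61%).

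The count of members past the threshold moved more, with the share of all genes in parentheses. For ERβ minus mock in SW480 (2 as reported) it was 0 with bins of a mean of at least 2 (18.7%), which left 4 members without *EIF2AK2* and *IFIT2*, 0 after quantile normalization (1.41%) and 0 with genes without signal kept (1.14%). It was 1 with median ratio scaling (1.56%), only the groups compared (1.2%), the bin by mean log2 (3.49%) or the promoter window (1.05%), 4 without replicate 1 of both HT29 groups (7.49%), 6 with the replicate block (12.8%), 4 with the block and median ratio (4.24%), 1 with the block and quantile normalization (1.92%) and 16 as ratios to input (35.4%). With the wide window it was 3, all higher, where 1529 of 19432 genes were higher and 13 lower. For SW480 minus HT29 in mock (3 as reported) it was 1 with the mean filter (21%), 6 with the wide window (17.9%), 7 with the grid moved by 100 bp (14.2%), 5 with the replicate block and quantile normalization (17.4%) and 9 as ratios to input (11.2%). For SW480 minus HT29 in ERβ (9 as reported) it was 2 with the mean filter (31.5%), 4 with median ratio scaling (12.9%) or quantile normalization (11.8%), 4 with either and the replicate block (12.7% and 12.2%), and 5 with only the groups compared (21%). For ERβ minus mock in HT29 (0 as reported) it was 3 as ratios to input (6.21%). For the interaction (0 as reported) it was 2 with the replicate block (8.58%), 1 with the block and median ratio (2.2%) and 16 as ratios to input (36.6%). Each input is 1 library shared by 3 ratios, so those p-values leave out its error. With 1 library left out the ranges were 0 to 0 for ERβ minus mock in HT29, 0 to 3 in SW480, 1 to 5 for the lines in mock, 3 to 10 in ERβ and 0 to 1 for the interaction. In SW480 (3.56% with all libraries) it was 0 without SW480 ERβ replicate 2 (1.04%), SW480 mock replicate 2 (1.62%) or 3 (2.05%). It was 1 without SW480 ERβ replicate 3 (1.49%), SW480 mock replicate 1 (1.33%), HT29 ERβ replicate 2 (3.08%) or HT29 mock replicate 3 (2.9%). For the lines in mock (14.2% with all libraries) it was 1 without HT29 mock replicate 1 (8.38%) and 5 without SW480 mock replicate 1 (8.61%). In ERβ (28.2%) it was 3 without SW480 ERβ replicate 2 (17.2%) or HT29 ERβ replicate 2 (16.5%) and 5 without SW480 ERβ replicate 3 (21.2%) or HT29 ERβ replicate 3 (18%). The interaction (0.709%) gave 1 without HT29 ERβ replicate 1 (3.06%).

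Of the differences past the threshold as reported, those of 3 genes turned direction. *IFIT2* was at 0.076 for ERβ minus mock in SW480 with the start of the gene record and at -0.062 for the lines in mock with the promoter window. For the lines in ERβ cells *BST2* was at 0.77 with the bin by replicates 2 and 3 and at 1.06 with the promoter window, and *IFIT1* at -0.025 with the bin by mean log2 and with the promoter window. The alternatives without replicate 1 of both HT29 groups, with genes without signal kept and with the block and scaling together were added after the data were seen.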
